A study of Gracilariopsis lemaneiformis with 12 samples.

Results

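In the red seaweed Gracilariopsis lemaneiformis, 41 of 25766 loci were lower with indole-3-acetic acid (IAA) at day 3 while differing little from controls at day 1. They were chosen by their expression values. FPKM, the number of fragments scaled to sequence length and library size, was summed over contigs that share a cluster ID. A locus was a member where its highest group mean was at least 5 FPKM, the day-3 IAA mean was lower than the day-3 control mean by at least 0.5 on the log2(FPKM + 1) scale, the day-1 means differed by less than 0.3, and all 3 day-3 IAA libraries lay below all 3 day-3 controls. Of the 25766 loci, 5512 reached 5 FPKM in a group. The IAA effect at both days was thus used in the choice, and its values in these loci are a description that supports nothing further.

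The series holds 12 libraries of strain 981 in 4 groups of 3. They are tissue treated with 100 µM IAA for 3 days, untreated tissue at day 3, tissue treated with 100 µM IAA for 1 day, and untreated tissue at day 1. All 12 carry the tissue label rhizoids and a source label of branch rhizoids with 2 cm of primary rhizoid, while the text on the design mentions branches too, so that the 2 days may differ in tissue. The labels do not say whether replicates are separate cultures, and p-values cover only the spread among the libraries at hand, which can be technical.

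IAA is an auxin, a plant hormone that in land plants controls cell elongation, branching and root formation. There it acts through receptors that direct the breakdown of transcriptional repressors, so that some genes rise and others fall after treatment. Auxin compounds are also found in seaweeds, and G. lemaneiformis is farmed for agar, a polysaccharide of its cell wall. IDs come without gene names, functions or sequences in the files used here, so the roles of the 41 loci are not known, pathway lists could not be applied and the tissue label could not be checked against marker genes.

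The 12 libraries each summed to 291205 to 308835 FPKM, with a relative depth of 0.981 to 1.003 estimated from low values, and absolute depth is unknown. That estimate used only values within 8% of the lowest value above 0 of each sequence. This holds it near 1, so it cannot show whether depths were equal. The median difference over the 11044 loci tested was 0.21 on the log2 scale for IAA minus control at day 3 and -0.35 for day 3 minus day 1 in controls. Over the 5512 loci of at least 5 FPKM these medians were 0.01 and -0.07. The part of such a shift in the members was not tested. Of the 41 loci, 32 were single sequences whose IDs begin with Unigene and 9 were clusters (IDs beginning with CL) holding 29 contigs. Clusters made up 22.0% of the members and 30.2% of the 5512 loci at 5 FPKM or more. The members were moderately abundant, with highest group means from 5.09 to 403 FPKM and a median of 14.0 FPKM, against a median of 29.6 FPKM over the 5512 loci. At least 20 FPKM was reached by 16 members, and 12 stayed under 10 FPKM. Their within-group SD on the log2(FPKM + 1) scale had a median of 0.13, against 0.06 over the 5512 loci.

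At day 3 the members stood at 20.3% to 69.0% of the control level with IAA, with a median of 59.8%. Most differences were moderate. The median difference of group means was -0.72 on the log2(FPKM + 1) scale, 8 members lay at or below -1 and 11 lay between -0.6 and -0.5. All 41 passed limma's test at adjusted p under 0.05 in the direction that chose them, against 10.9% of the 11044 loci tested and 20.7% of the 5512 loci at 5 FPKM or more. In bulk tissue, fewer cells of a type and less RNA per cell cannot be told apart.

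The largest difference was in Unigene3496_All. At day 3 it was at 3.82, 3.29 and 3.04 FPKM in the IAA libraries, against 15.79, 17.19 and 16.93 FPKM in the controls. At day 1 it was at 7.85, 7.34 and 8.10 FPKM with IAA, against 6.62, 6.34 and 6.29 FPKM in controls. The day-3 IAA libraries were thus the lowest of the 12 and the day-3 controls the highest, with no overlap with any other group. The day-3 difference was -2.01 ± 0.07 on the log2 scale (SE; limma adjusted p = 7.641e-10).

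Unigene2517_All had the second largest difference and another shape. Its day-3 values were 2.95, 2.85 and 5.03 FPKM with IAA, against 9.54, 10.32 and 9.46 FPKM in controls. Its day-1 values were 0.66, 0.55 and 0.19 FPKM with IAA, against 0.62, 0.57 and 0.76 FPKM in controls. This locus was near the lower end of the scale on day 1 in both groups, and at day 3 it was high in controls and intermediate with IAA. The day-3 difference was -1.26 ± 0.17 (SE; limma adjusted p = 0.0001032).

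**Figure D1:**
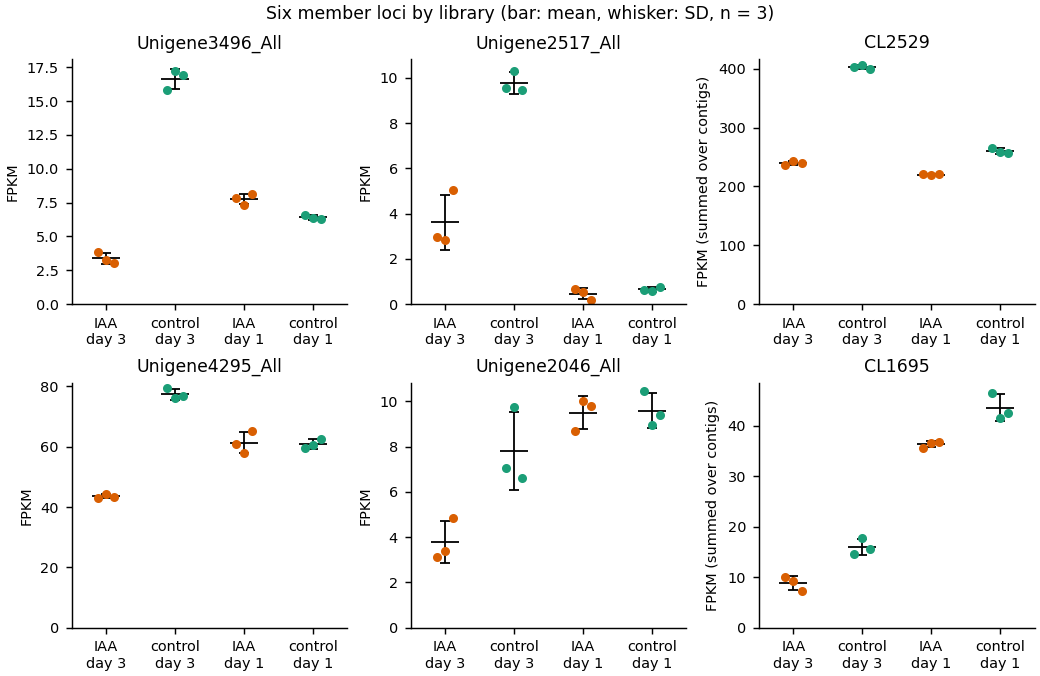
FPKM per library (points) of 6 member loci in the 4 groups, with IAA in orange and controls in green; bars are means and whiskers SD, n = 3. In each panel the day-3 IAA libraries lie below the day-3 controls, while the place of the day-1 libraries differs, from below both day-3 groups in Unigene2517_All to above both in CL1695.

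Around the threshold, the member closest inside was Unigene1280_All, with a day-3 difference of -0.51 and means of 14.3 ± 1.20 FPKM with IAA and 20.8 ± 1.46 FPKM in controls (SD, n = 3). The closest locus outside that met the other criteria was Unigene6792_All, with a difference of -0.49 and means of 92.8 ± 1.53 FPKM with IAA and 130.3 ± 5.60 FPKM in controls. The 2 loci differ little in the measure that separates them.

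At day 1 the differences were spread on both sides of 0: 16 members were above it, 24 below and 1, listed at 0 in all day-1 libraries, was exactly at 0. The values lay between -0.30 and 0.30, as the choice required. Although limited in size, 9 members passed limma's test at day 1, 3 higher and 6 lower with IAA, which is 22.0% of the members against 18.9% of all loci tested and 35.1% of those at 5 FPKM or more. The most abundant member, CL2529, was among the lower ones. Its difference was -0.24 ± 0.02 at day 1 and -0.75 ± 0.02 at day 3 (SE).

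**Figure D2:**
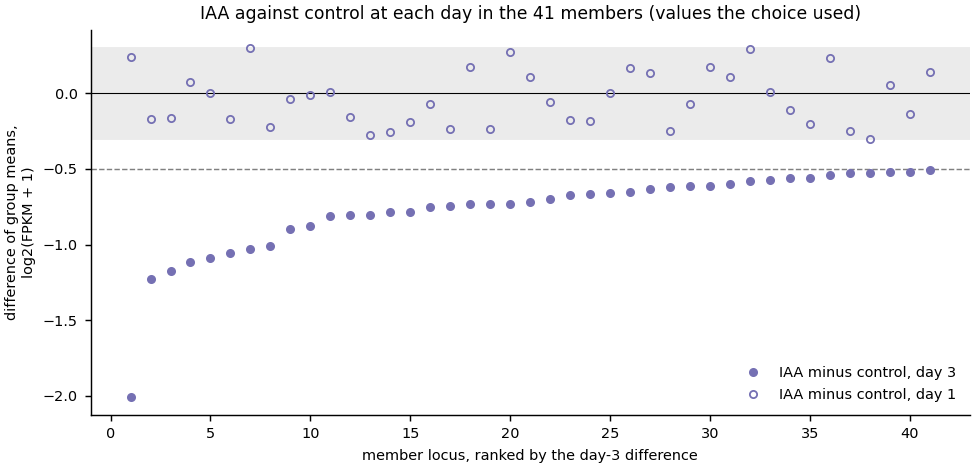
Difference of group means, IAA minus control, on the log2(FPKM + 1) scale for the 41 members ranked by the day-3 value; filled points are day 3 and open points day 1. The dashed line marks the day-3 threshold of -0.5 and the grey band the day-1 limit of 0.3, and the day-3 values run from -2.01 to -0.51.

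The rule keeps the change between days with IAA below that in controls, but does not set the size or direction of either change. In controls the members were mostly higher at day 3. By limma 29 rose and 2 fell, which is 70.7% and 4.88% of the members. Over all loci tested, 13.6% rose and 57.8% fell, and over those at 5 FPKM or more, 24.4% rose and 45.7% fell. The median difference in controls, day 3 minus day 1, was 0.49 on the log2 scale in the members, against -0.35 over all loci tested and -0.07 over those at 5 FPKM or more. The day-3 controls entered the choice as the higher group, so part of this gap follows from the rule, and how large a part was not tested. The days may also differ in the tissue taken.

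With IAA the members were divided. By limma 12 rose and 18 fell between day 1 and day 3, which is 29.3% and 43.9% of the members. Over all loci tested, 13.3% rose and 20.7% fell, and over those at 5 FPKM or more, 22.8% rose and 29.1% fell. The median difference was -0.22 in the members, against -0.07 and -0.03 in these 2 backgrounds. Here the day-3 IAA libraries entered the choice as the lower group, which bears on the falls in the same way. With median-of-ratios size factors the median over all loci tested shifted up by 0.11 with IAA and by 0.40 in controls. Under them 15 members rose and 13 fell with IAA, and 39 rose and 1 fell in controls. The median over all loci tested in controls was then 0.05. Shares of all loci called under this scaling are not given, and the shares above do not apply to these counts.

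The day-3 controls had the highest of the 4 group means in 36 members, and the day-3 IAA libraries the lowest in 23. The shares of the 5512 loci with these orders of means are not given, so no excess is read from these counts. The rule alone keeps the day-3 IAA mean from being the highest and the day-3 control mean from being the lowest. All 3 day-3 controls lay above each of the other 9 libraries in 28 members, while 11.6% of the 5512 loci had this pattern. All 3 day-3 IAA libraries lay below each of the other 9 in 16 members, while 7.86% of the 5512 loci did. In both patterns the separation from the other day-3 group was fixed by the rule, and the separation from the day-1 libraries was not.

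Summed over the members, the day-3 controls were the highest. Their place above the day-3 IAA libraries was fixed by the rule in every member, while their place against the day-1 libraries was not. The 41 loci took 0.302%, 0.301% and 0.304% of summed FPKM in the day-3 IAA libraries, against 0.534%, 0.539% and 0.536% in the day-3 controls. They took 0.317%, 0.321% and 0.331% in the day-1 IAA libraries, against 0.342%, 0.341% and 0.344% in the day-1 controls. The sum with IAA at day 3 was thus a little below that of either day-1 group, and the day-3 controls were well above all other libraries. Without CL2529, the most abundant member, the group means were 0.224 ± 0.00197% with IAA and 0.399 ± 0.00176% in controls at day 3 (SD, n = 3). At day 1 they were 0.250 ± 0.00741% with IAA and 0.257 ± 0.00303% in controls. Sums weigh abundant loci most, so these means too rest largely on the more abundant of the remaining members.

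**Figure D3:**
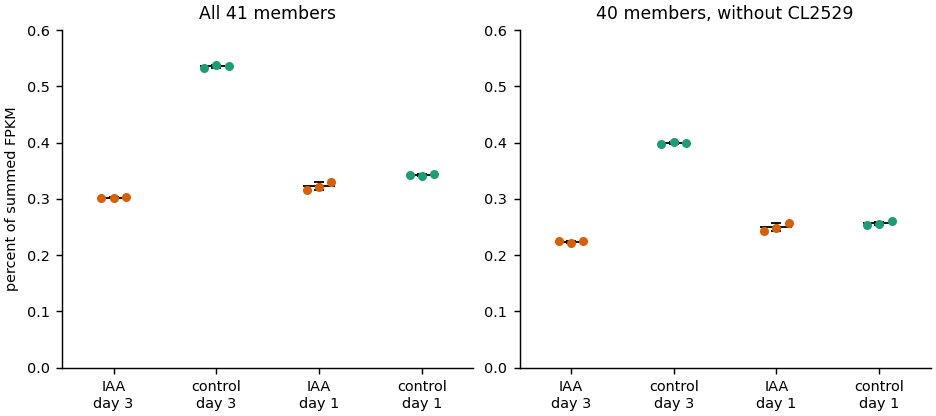
Percent of each library's summed FPKM taken by all 41 members (left) and by 40 members without CL2529 (right); points are libraries, bars means and whiskers SD, n = 3. In both panels the day-3 controls are highest, at a mean of 0.536% and 0.399%, and the other groups lie close together. That the day-3 controls lie above the day-3 IAA libraries follows from the rule.

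Members were then placed by the change between days in each treatment, taking a difference of group means of 0.3 or more on the log2(FPKM + 1) scale as a change. Of the 41, 13 were higher at day 3 in controls and within 0.3 with IAA, 10 were higher in controls and lower with IAA, and 8 were higher in both. Another 8 were lower with IAA and within 0.3 in controls, 1 was lower in both and 1 was within 0.3 in both. Among the 5512 loci the same classes held 3.99%, 0.671%, 5.37%, 2.87%, 9.85% and 55.6% in that order. Because the rule makes the day-3 effect of IAA more negative than the day-1 effect, members could lie only where the change with IAA was below that in controls. Within a class, limma's calls between days rest on the same differences that defined it. How many members of a class passed is thus largely set by the cut and is given as a description. The loci named for these classes, other than those already named and Unigene2046_All, Unigene2417_All and CL1695, were picked after their values were seen, as the most abundant of each class.

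**Figure D4:**
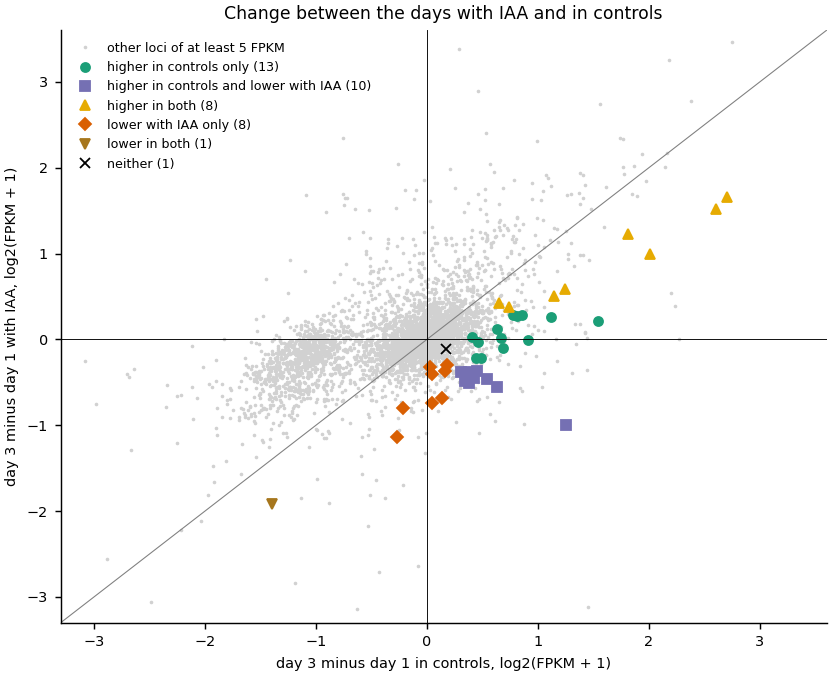
Day 3 minus day 1 on the log2(FPKM + 1) scale in controls (horizontal) and with IAA (vertical) for the 41 members by class, with other loci of at least 5 FPKM in grey; the diagonal marks equal change. The members lie below the diagonal, as the rule requires, and 31 of the 41 lie at 0.3 or more on the control axis.

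The class higher in controls alone held 13 members, 4 of them clusters. Their difference between days was -0.22 to 0.28 with IAA and 0.40 to 1.54 in controls, and all 13 rose in controls by limma. With IAA 4 rose and 2 fell. CL2529, the most abundant, was at 236.86, 243.02 and 239.58 FPKM with IAA at day 3, against 402.43, 407.08 and 399.42 FPKM in controls. At day 1 it was at 220.36, 219.93 and 220.57 FPKM with IAA, against 265.86, 257.73 and 256.91 FPKM in controls. The day-3 IAA libraries fell between the 2 day-1 groups. Between the days it rose by 0.12 ± 0.02 with IAA and by 0.63 ± 0.02 in controls (SE; limma adjusted p = 0.0003477 and 1.383e-10).

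The class higher in controls and lower with IAA held 10 members, 1 of them a cluster, and included Unigene3496_All. The differences between days were at or below -0.37 with IAA and lay at 0.30 to 1.25 in controls. By limma 7 fell with IAA and 8 rose in controls. Unigene4295_All, the most abundant, was at 43.01, 44.31 and 43.50 FPKM with IAA at day 3, against 79.42, 76.04 and 76.71 FPKM in controls. At day 1 it was at 60.80, 58.07 and 65.15 FPKM with IAA, against 59.48, 60.57 and 62.65 FPKM in controls. The day-1 groups overlapped and lay between the separated day-3 groups. It fell by 0.48 ± 0.04 with IAA and rose by 0.34 ± 0.04 in controls (SE; limma adjusted p = 8.109e-07 and 8.179e-06).

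The class higher in both held 8 members, 1 of them a cluster, and all 8 rose in both treatments by limma. Their differences between days were 0.38 to 1.65 with IAA and 0.65 to 2.71 in controls. The 2 largest rises in either treatment were in Unigene2517_All and Unigene4061_All. Unigene2517_All rose by 1.63 ± 0.17 with IAA and by 2.71 ± 0.17 in controls (SE; limma adjusted p = 1.334e-05 and 8.198e-08). All 6 day-1 libraries list Unigene4061_All at 0, while its day-3 values were 2.22, 2.35 and 1.01 FPKM with IAA, against 5.52, 5.22 and 4.54 FPKM in controls. It was thus detected on day 3 alone, in all 6 libraries, and higher in each control than in any IAA library. Its limma adjusted p between days was 2.807e-05 with IAA and 1.057e-07 in controls. The size of such a difference depends on the pseudocount, and with 0.1 FPKM in place of 1 FPKM it was 4.21 with IAA and 5.69 in controls, against 1.48 and 2.60.

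The most abundant locus of that class, CL1178, changed less. At day 3 it was at 33.52, 32.91 and 34.65 FPKM with IAA, against 53.97, 51.02 and 51.85 FPKM in controls. At day 1 it was at 25.30, 25.23 and 26.70 FPKM with IAA, against 30.04, 31.48 and 31.02 FPKM in controls. The 4 groups did not overlap, and IAA libraries were the lower ones on both days. It rose by 0.38 ± 0.03 with IAA and by 0.74 ± 0.03 in controls (SE; limma adjusted p = 2.614e-06 and 3.494e-09).

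The class lower with IAA alone held 8 members, 1 of them a cluster, and all 8 fell with IAA by limma. Their differences were -1.13 to -0.30 with IAA and -0.27 to 0.18 in controls. This class rested most on the scaling: it held 2 members under median-of-ratios size factors and 5 under quantile normalization. Unigene2046_All fell most. It was at 3.14, 3.39 and 4.83 FPKM with IAA at day 3, against 7.04, 9.75 and 6.59 FPKM in controls, and at day 1 at 8.68, 10.01 and 9.81 FPKM with IAA, against 10.44, 8.93 and 9.39 FPKM in controls. One day-3 control lay within the day-1 range and the other 2 lay below it. With IAA it fell by 1.15 ± 0.14 between the days (SE; limma adjusted p = 5.38e-05). In controls the difference was -0.28 ± 0.14 (SE; limma adjusted p = 0.09459).

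CL626, the most abundant of the 8, was at 20.46, 22.28 and 21.33 FPKM with IAA at day 3, against 32.77, 31.14 and 31.94 FPKM in controls. Its day-1 values were 28.12, 29.67 and 28.00 FPKM with IAA, against 30.08, 30.79 and 32.19 FPKM in controls. The control libraries of the 2 days overlapped. The difference between days was -0.41 ± 0.04 with IAA (SE; limma adjusted p = 5.36e-06) and 0.04 ± 0.04 in controls (SE; limma adjusted p = 0.3446).

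In controls 2 members fell between the days. CL1695 was the single member lower in both treatments. At day 3 it was at 10.10, 9.21 and 7.27 FPKM with IAA, against 14.60, 17.73 and 15.60 FPKM in controls. Day-1 values were 35.64, 36.59 and 36.86 FPKM with IAA, against 46.60, 41.48 and 42.61 FPKM in controls. Every day-3 library lay below every day-1 library, and IAA libraries were the lower ones on both days. It fell by 1.93 ± 0.09 with IAA and by 1.39 ± 0.09 in controls (SE; limma adjusted p = 1.388e-08 and 1.412e-07), the control value being -0.85 under median-of-ratios size factors. Unigene2417_All averaged 7.14 ± 0.375 FPKM in controls of day 3 and 8.44 ± 0.509 FPKM in those of day 1 (SD, n = 3), and fell by 0.21 ± 0.06 (SE; limma adjusted p = 0.007352). That direction was reversed, to 0.29 with median-of-ratios size factors and to 0.15 with quantile normalization. CL1679, within 0.3 between days in both treatments, was at 5.51, 6.37 and 4.57 FPKM with IAA at day 3, against 6.85, 9.59 and 8.65 FPKM in controls. Day-1 values were 5.46, 5.75 and 6.85 FPKM with IAA, against 6.42, 7.02 and 8.58 FPKM in controls, and these groups overlapped.

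The rule used the sum over contigs, so the contigs of the 9 clusters show whether a cluster moved as a whole. Of their 29 contigs, 24 had a mean of at least 1 FPKM and were tested, and 21 of these were lower with IAA at day 3 in value. By limma over single sequences 13 fell and 0 rose, where 8.28% of the 14065 sequences tested fell. At an unadjusted p under 0.05 the number that rose was also 0. In 8 of the 9 clusters at least 1 contig fell, and the share of all clusters with such a contig was not computed. Every tested contig fell in 3 clusters, and among these CL2098 and CL564 had only 1 tested contig each. Since the sums were chosen for being lower, contigs lower in value are built into the choice, and how they share the difference is not. An assembler can divide reads of 1 gene, or of near-identical copies, among contigs, so values of single contigs are less certain than the sums.

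In CL2529 all 5 contigs fell, by 0.64 to 0.84 on the log2 scale, and 68.4% of the difference in FPKM lay in its most abundant contig. That contig, CL2529.Contig3_All, was at 165.75, 171.38 and 168.64 FPKM with IAA, against 276.70, 284.71 and 279.22 FPKM in controls at day 3. The 5 contigs of this cluster moved alike.

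CL556 was the opposite case, chosen for description after its contigs were seen. Of its 7 contigs 5 were tested and 2 fell. CL556.Contig6_All was at 7.52, 5.31 and 4.50 FPKM with IAA at day 3, against 18.50, 15.98 and 15.39 FPKM in controls, and held 80.9% of the difference of the cluster. At day 1 it was at 0.84, 1.33 and 1.39 FPKM with IAA, against 3.31, 3.29 and 1.96 FPKM in controls, so its IAA libraries lay below the controls on both days. Its most abundant contig at day 1, CL556.Contig5_All, was at 10.2 ± 1.74 FPKM with IAA and 10.2 ± 1.58 FPKM in controls at day 3. In CL979 no contig passed the test, although the sum did, with limma adjusted p = 0.05395 and 0.05551 for the 2 contigs with most of the difference. The contig with the larger part, CL979.Contig1_All, was at 9.44, 7.44 and 7.15 FPKM with IAA at day 3, against 24.62, 13.05 and 12.56 FPKM in controls. Replicate 1 of the controls was the highest. In the authors' deposited table this contig is listed as lower at day 3, with a log2 ratio of -1.06 and a q-value of 2.69e-15.

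**Figure D5:**
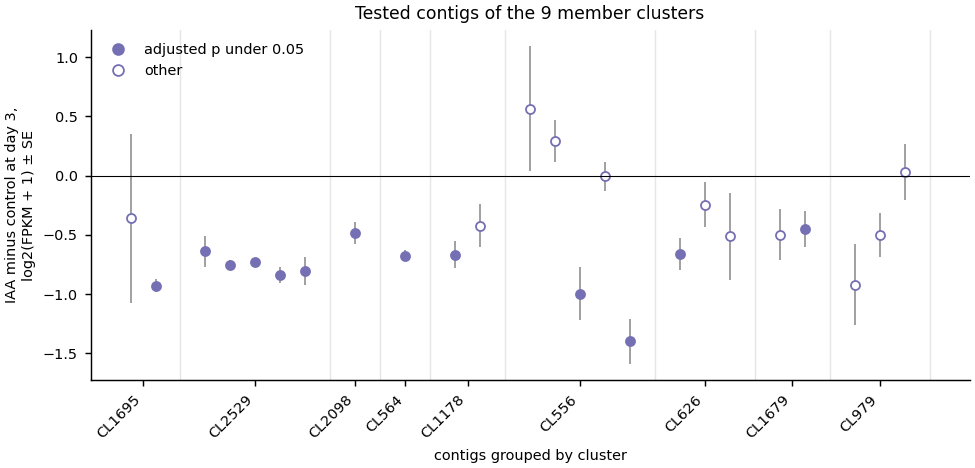
IAA minus control at day 3 on the log2(FPKM + 1) scale, with SE, for the 24 tested contigs grouped by their 9 clusters; filled points have a limma adjusted p under 0.05. The contigs of CL2529 lie together between -0.84 and -0.64, while those of CL556 run from -1.40 to 0.57.

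The day-3 difference was also looked at in libraries that a choice did not use. The rule was applied without replicate 1, 2 or 3 of every group and the loci so chosen were read in the left-out replicate, IAA minus control at day 3. The numbers name libraries and were not taken to pair them. Members made up 35 of the loci chosen without replicate 1, 35 without replicate 2 and 36 without replicate 3. The rest were not members, and left-out values are not given for members alone. Without replicate 1 the rule chose 51 loci, with a median of -0.65 in the replicates used and -0.61 in the left-out pair, where 45 of 51 were below 0 and 31 at or below -0.5. Without replicate 2 it chose 53, with medians of -0.72 and -0.62, and 46 of 53 below 0 and 31 at or below -0.5. Without replicate 3 it chose 49, with medians of -0.69 and -0.64, and 45 of 49 below 0 and 33 at or below -0.5. Over the 5512 loci, 45.1% to 47.0% were below 0 and 1.87% to 2.07% at or below -0.5 in the same library pairs. In these sets, which include loci that are not members, the left-out values were thus slightly smaller than those used for the choice. They mostly kept the sign. The left-out libraries belong to the same groups as those used, and the labels do not say whether replicates are separate cultures. Left-out values can thus resemble the others for technical reasons, and they are a description that adds no independent support. At day 1 the left-out medians were -0.04, -0.14 and -0.01, with values spread on both sides of 0. Those at or below -0.5 numbered 1 of 51, 6 of 53 and 3 of 49, against 4.05%, 3.28% and 3.37% of the 5512 loci, and single values ran from -2.45 to 0.92.

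The authors' deposited table for day 3 lists 14 sequences of 13 members, all lower with IAA, namely 9 Unigene sequences and 5 contigs of 4 clusters. That table holds no log2 ratio under 1 in size. Unigene3496_All has the most negative of the listed Unigene ratios, at -2.30 in the authors' deposited table. The authors' deposited table for day 1 lists 1 sequence of a member, CL556.Contig6_All, with a log2 ratio of -1.27.

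Of the 5512 loci, 82 met the day-3 criteria of size and no overlap. Of these, 15 were also lower with IAA at day 1 by 0.3 or more, 26 were higher at day 1 by 0.3 or more, and 41 were the members. The same rule with the day-3 direction turned round was met by 834 loci, which were higher with IAA at day 3 and within 0.3 at day 1. That number was not recomputed under other scalings. The number meeting the rule for lower values came to 469 under median-of-ratios scaling, 142 under quantile normalization, 58 with a common sum and 36 with size factors from loci of 20 FPKM or more.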

How the data were processed

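Values are FPKM with 2 decimals for 30780 assembled sequences, deposited by the authors. Bowtie2 2.2.5 is named in the submitters' processing notes, with no role. Assembler, quantifier and filters: not given in the sources used here. Log2 ratios, p-values and q-values of changed sequences at each day are the authors' own, per the file headers, and their test is not stated. FPKM was summed per locus. Low Unigene values were near multiples of 1 read (67.2% of 10991 values within 0.1 of a whole number, from 2050 sequences), too few for a count test.

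The rule used log2 of group means plus a pseudocount of 1 FPKM. Tests used limma 3.58.1 (R 4.3.3) on log2(FPKM + 1) of 11044 loci with a mean of at least 1 FPKM, with 4 group means, a variance trend, two-sided p-values and Benjamini-Hochberg adjustment over all of them. All 41 members passed this filter. The fit was tested on simulated data. Named loci are the 2 with the most negative day-3 difference, the 2 rising and 2 falling most between days in each treatment among called members without overlap, those nearest the threshold, and a few said to be picked after their values were seen. Alternatives covered scaling, pseudocount, filters, thresholds, a replicate block and leaving out each library. The members and lists were chosen with earlier results of these data known.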

Additional observations from a re-analysis of the deposited data

How the results depend on the processing

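The number of loci meeting the rule was 469 with median-of-ratios size factors (37 of the 41 members among them), 142 after quantile normalization (36), 81 for single sequences without summing, 64 with a minimum group mean of 1 FPKM, 16 with 20 FPKM, 8 with a day-3 threshold of -1 and 27 with a day-1 limit of 0.2. Size factors from loci of 20 FPKM or more gave 36, a common sum 58, a pseudocount of 0.1 FPKM 38 and no overlap criterion 44. Leaving out 1 library gave 39 to 49, with 36 to 40 of the members kept, and 25 members were kept under all 12. In the day-3 comparison the median over all loci shifted by -0.24 with median-of-ratios size factors and by -0.22 with quantile normalization. The median of the members there stayed between -1.03 and -0.69 under the 4 scalings.

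With median-of-ratios size factors 5 members passed the test at day 1 and 1 fell in controls between days (1 with quantile normalization). Shares of all loci called under these scalings are not given. Leaving out 1 library left 40 to 41 members lower at day 3, 6 to 9 changed at day 1, 9 to 12 higher and 15 to 18 lower between days with IAA, 28 to 30 higher and 2 to 3 lower in controls, and 12 to 15 contigs lower. Classes by day moved most with the limit. At 0.2, 6 members were higher in controls alone, 13 in both and 3 lower in both. At 0.5, 2 were higher in controls and lower with IAA, 5 lower with IAA alone and 15 in the class without change. With size factors 13 were higher in both, 2 lower with IAA alone and 0 without change. Quantile normalization gave 5 lower with IAA alone and 0 without change. Unigene2417_All reversed in controls, to 0.29 and 0.15 under these 2 scalings. The cause was not tested. The comparisons for which Unigene3496_All, Unigene2517_All, Unigene4061_All, Unigene2046_All and CL1695 were named by the rule kept direction and call under the 19 alternatives. Apart from Unigene2417_All, values of the other named loci under these alternatives are not given here.

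Same-numbered libraries did not deviate together (r -0.05 to 0.05 over 18 pairs), so the numbers were not taken to pair them. The labels do not say whether they do, and these correlations cannot settle it. With the replicate block 41 members were lower at day 3, and 12 rose and 18 fell with IAA and 29 rose and 2 fell in controls, as without it. Absolute depth is unknown, which limits what can be said of members near 1 FPKM or listed at 0.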
